A study of Danio rerio with 4 samples.

Results

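The brain transcriptome of female atrn-/- zebrafish was compared with that of female wild-type zebrafish, using 2 of the 4 libraries of the study, 1 for each genotype. Both libraries are labelled as brain of females at 4 months post-fertilization (4 mpf), and the other 2 libraries are the male wild type and the male atrn-/- at the same age. The mutant line was made with CRISPR/Cas9, and a small deletion within an exon of atrn is predicted to give a truncated protein. The labels give the genotype and sex but not the mutant allele, and the number of brains in a library was not resolved, because the study's results speak of several brains from each group and its methods of a single brain. With 1 library on each side there is no replicate check, so no p-value is given and every interval below is a 95% counting interval that leaves out the variation between fish.

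Attractin, the product of atrn, is a transmembrane glycoprotein with CUB, kelch, lectin and EGF-like domains. In mice, its loss gives the mahogany phenotype, with a darker coat, altered body weight and vacuoles in the brain, and the protein acts with melanocortin signalling through agouti peptides. The libraries were compared to describe which brain genes differed between the mutant and the wild-type library.

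The female wild type held 8654693 counted reads and the female mutant 13116358, against 16100263 and 16254750 in the male wild type and male mutant. Expression is given as CPM, the counts per 1000000 reads of the library after TMM scaling, with factors between 0.992 and 1.01. Ratios are log2 values of mutant over wild type with a prior count of 2, computed for the 19943 genes whose counts averaged 10 or more over the libraries. The median female log2 ratio was 0.00. The 63 synapse and neuron genes in the table summed to 27545 CPM in wild-type and 29839 CPM in mutant females, with 1 of them at 0 in each, so the markers of the labelled tissue were present in both.

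atrn was at 75.4 CPM in wild-type and 32.3 CPM in mutant females, and at 50.5 and 28.6 CPM in wild-type and mutant males. Both mutant libraries were lower than both wild types. The female log2 ratio was -1.22 (95% interval -1.4 to -1.05). The related gene atrnl1b did not follow, with 174 CPM in wild-type and 171 CPM in mutant females. mgrn1b and mgrn1a encode mahogunin, a ubiquitin ligase of the same mouse phenotype group. mgrn1b had 197 and 173 CPM and a female log2 ratio of -0.18 (95% interval -0.27 to -0.09). mgrn1a had 64.6 and 64.2 CPM and a female log2 ratio of -0.01 (95% interval -0.16 to 0.15). The 100 tested genes nearest to atrn in gene order, 50 on each side, were as a set no more variable than others. In the female mutant, 3 of them were at least 2-fold higher and 2 at least 2-fold lower. Their median absolute log2 ratio was 0.22, the same as in the other 18010 genes that could be placed. Single genes close to atrn did differ. The female interval lay below 0 for slc4a11 (-0.88), fgfr3 (-0.59) and pank2 (-0.58), and above 0 for mark3 (0.18). The male log2 ratios of slc4a11, fgfr3 and pank2 were 0.04, -0.42 and -0.29. The direct neighbours eif2ak3 (-0.04) and gfra4a (-0.02) had female intervals that include 0.

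Over all tested genes, 670 were at least 2-fold higher in the female mutant (3.36%) and 892 at least 2-fold lower (4.47%). The counting interval lay above 0 for 3666 genes (18.4%) and below 0 for 3673 (18.4%). In the male comparison, 1022 genes were at least 2-fold higher or lower (5.12%). These shares are the background against which the gene lists below are read. Skeletal muscle genes were set aside first. Of 103 tested muscle genes, 69 were at least 2-fold lower in the female mutant and 1 was higher, and the female wild type was the highest of the 4 libraries in 82 of them. The myosin gene myhc4 was at 1024 CPM in wild-type and 32.4 CPM in mutant females, and at 7.94 and 3.72 CPM in wild-type and mutant males. The muscle list held 0.883% of the reads of the female wild type and between 0.169% and 0.237% of those of the other 3 libraries. Outside the list, the troponin gene tnni2a.3, chosen for its values, was lower as well, with a log2 ratio of -3.71. A list of glycolytic and other metabolic enzymes with muscle isoforms, added after the values were seen, did not move as a whole. Of its 31 tested genes, 4 were at least 2-fold lower and 0 higher, the interval lay above 0 in 6 and below 0 in 13, and the median was -0.07. The 4 lower ones were the nucleoside diphosphate kinase gene nme2b.2 (-2.35), the pyruvate kinase gene pkmb (-2.91) and the phosphofructokinase genes pfkma (-3.08) and pfkmb (-2.79), while ckbb, the brain-type creatine kinase gene, and the lactate dehydrogenase gene ldhba had 0.18 and 0.46.

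**Figure D1:**
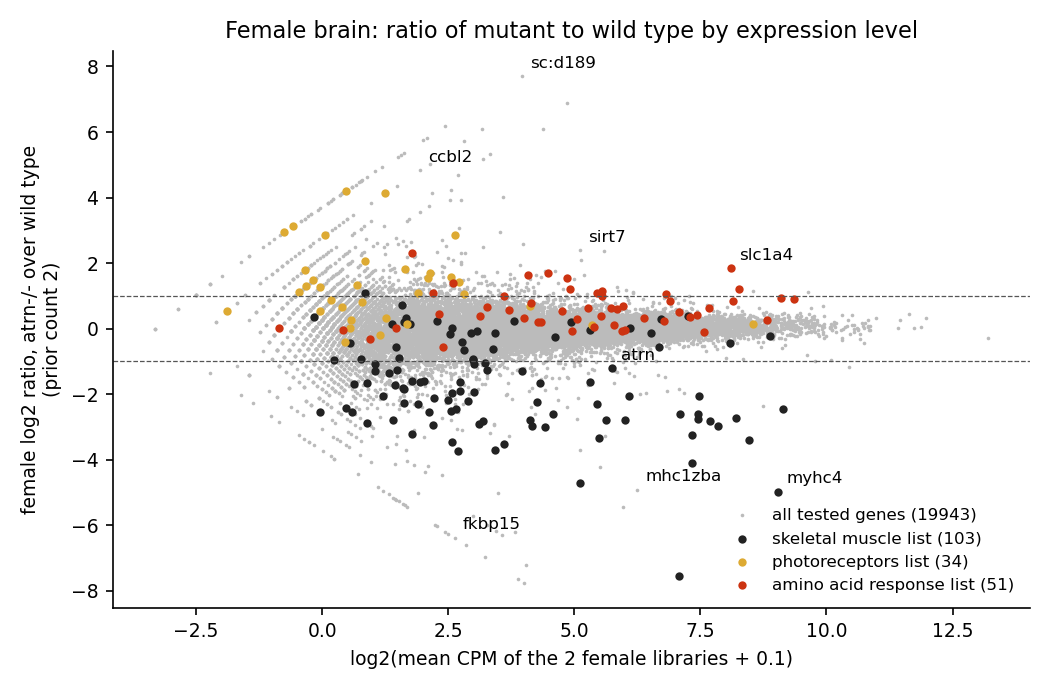
Female log2 ratio of atrn-/- over wild type against the mean level of the 2 female libraries, 1 point per tested gene, with dashed lines at 2-fold. Most muscle genes (black) lie below the lower line, the photoreceptor genes (yellow) lie mostly above 0 at low levels, and the amino acid response genes (red) lie mostly above 0 at all levels.

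Outside the muscle list, 669 genes were at least 2-fold higher and 823 at least 2-fold lower in the female mutant. For 166 of the higher and 222 of the lower genes, the whole counting interval was past 2-fold. The male libraries were used to see which female library was unusual. Among the 669 higher genes, the female wild type was at least 2-fold below each of the other 3 libraries in 233, and the female mutant was at least 2-fold above each of the others in 58. Among the 823 lower genes, the female wild type was at least 2-fold above each of the others in 112 and the female mutant at least 2-fold below them in 228. The 112 still include the troponin gene tnni2a.3 and the metabolic genes nme2b.2, pkmb, pfkma and pfkmb named above, so setting the list aside did not remove every muscle gene. The male ratio was also at least 2-fold in the same direction for 130 of the higher and 142 of the lower genes. It was at least 2-fold in the opposite direction for 54 and 46. Over all 19943 tested genes, the male ratio was at least 2-fold higher in 544 and lower in 478. In both directions, the library that stood apart was more often the low one. The minimum on the mean count passes a gene low in a single library more readily than a gene read in a single library. How much of the difference this accounts for was not tested.

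Genes of the amino acid response were higher in the female mutant. In this pathway, uncharged tRNA or other stress slows general translation while the transcription factor Atf4 is made, and Atf4 then raises genes for amino acid uptake, amino acid synthesis and tRNA charging. The list was put together after slc1a4, slc7a11, asns and atf4b2 had been seen, so its counts describe these libraries only. Of its 51 tested genes, 13 were at least 2-fold higher in the female mutant and 0 lower, the interval lay above 0 in 36 and below 0 in 2, and the median log2 ratio was 0.56. The male median was 0.15. The female mutant was the highest of the 4 libraries in 39 of the 51, where 24.3% of all tested genes had it highest. Other lists also hold 14 of the 51 genes.

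Among the transcription factors, atf4b2 was at 459 CPM in wild-type and 852 CPM in mutant females, and at 570 and 672 CPM in wild-type and mutant males. Its log2 ratio was 0.89 (95% interval 0.84 to 0.95). atf3, a stress-induced factor downstream of Atf4, was at 10.4, 34.3, 13.8 and 13.6 CPM in the same order, with a log2 ratio of 1.71 (95% interval 1.4 to 2.07). Thus the female mutant was above the other 3 libraries for both, and the male libraries hardly differed for atf3. cebpg, a partner of Atf4, had a log2 ratio of 0.86 and ddit3, the factor known as Chop, 0.50.

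The 2 highest ratios of the list were those of the amino acid transporters slc7a11 and slc1a4. slc1a4, a carrier of alanine, serine and cysteine, was at 119 CPM in wild-type and 430 CPM in mutant females, and at 147 and 214 CPM in wild-type and mutant males, for a female log2 ratio of 1.85 (95% interval 1.76 to 1.95). The 2 male libraries lay between the female ones. slc7a3a, a carrier of cationic amino acids, was at 186, 433, 206 and 233 CPM in that order, with a log2 ratio of 1.22 (95% interval 1.14 to 1.3). slc7a11, the cystine carrier, had 9, 74, 19 and 47 counts and a log2 ratio of 2.30 (95% interval 1.46 to 3.65). It was the member of the list that was also at least 2-fold higher in the male mutant. slc3a2b, the shared heavy chain of several of these carriers, had a log2 ratio of 0.84 (95% interval 0.76 to 0.92).

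Enzymes that make amino acids and one-carbon units moved with the carriers. asns, which makes asparagine, was at 8.20 CPM in wild-type and 25.5 CPM in mutant females, and at 16.1 and 14.4 CPM in wild-type and mutant males, with a log2 ratio of 1.62 (95% interval 1.27 to 2.03). mthfd2, a mitochondrial folate enzyme, had a log2 ratio of 1.16 (95% interval 0.96 to 1.38), mthfd1l 1.39, the alanine aminotransferase gene gpt2 1.2, and cbsb, the entry enzyme of transsulfuration, 1.06. phgdh and psat1, successive enzymes of serine synthesis, had 0.99 and 0.63. Feedback members were higher as well. sesn2, which reports low leucine to the mTORC1 kinase, was at 14.6, 42.9, 14.1 and 15.9 CPM, and only the female mutant stood out. chac1, which degrades glutathione, had a log2 ratio of 0.93 (95% interval 0.87 to 0.98) and trib3, an inhibitor of Atf4 action, 0.63. Members without a difference beyond counting error included xpot (-0.04), eif4ebp1 (0.05) and ddit4 (-0.07).

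The tRNA synthetases split by compartment. All 20 cytosolic synthetase genes had an interval above 0 in the females, and the female mutant was the highest library in each of them. Their median log2 ratio was 0.63, from 0.25 for vars to 1.4 for mars, and 4 were at least 2-fold higher. mars, which charges methionine tRNA, was at 13.9 CPM in wild-type and 37.0 CPM in mutant females, and at 20.3 and 23.1 CPM in wild-type and mutant males. yars was at 45.7, 98.5, 58.3 and 58.2 CPM in the same order, so that the male libraries did not differ for this gene. The 15 genes of the mitochondrial synthetases had a median of -0.01, with 0 at least 2-fold apart. In the males the medians were 0.19 and -0.05. The male interval lay above 0 in 12 of the 20 cytosolic genes and below 0 in 1. Over all 19943 tested genes it lay above 0 in 4047 and below 0 in 4248. Both synthetase lists were added after the amino acid response had been seen.

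**Figure D2:**
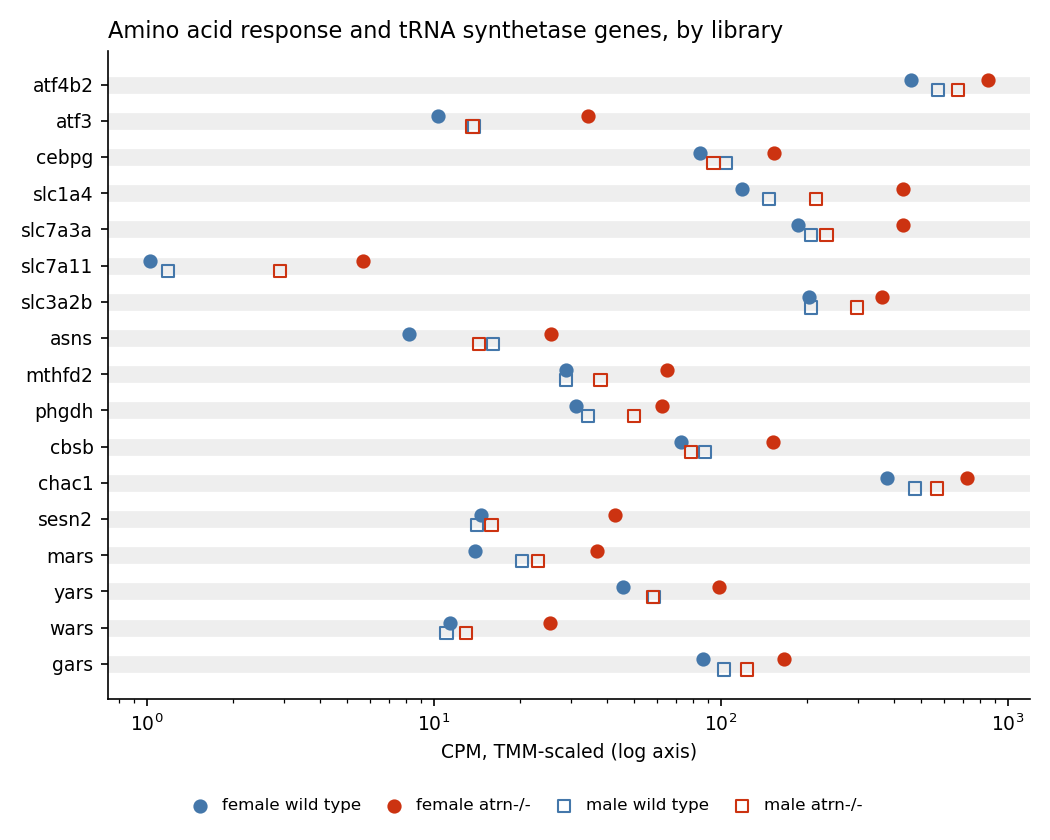
CPM of amino acid response and cytosolic tRNA synthetase genes in the 4 libraries, on a log axis, with circles for females, squares for males, blue for wild type and red for atrn-/-. For each of these genes the female atrn-/- library is the highest, as for slc1a4 at 430 CPM, and levels of different genes are not compared.

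Against the mean of the 2 male libraries on the log2 scale, the amino acid response list had a median of 0.47 in the female mutant and -0.12 in the female wild type, and the cytosolic synthetases 0.36 and -0.21. Both libraries thus contributed to the female ratio, the mutant more. Other stress lists had smaller medians. The amino acid response list was put together after high members had been seen, so this order of the lists is no test. Of 48 tested heat shock and chaperone genes, 24 had an interval above 0 and 7 below, with a median female log2 ratio of 0.13, and the 1 member past 2-fold was asns, which both lists hold. Of 53 antioxidant and glutathione genes, 5 were at least 2-fold higher, among them slc7a11 and sesn2 of the amino acid response list, and 1 was lower. The interval lay above 0 in 20 and below 0 in 6, and the median was 0.16. In the hypoxia response, the interval lay above 0 in 10 of 32 genes and below 0 in 13, with a median of -0.03. Of the 32, 4 were at least 2-fold lower and 0 higher, where the shares over all tested genes were 4.47% and 3.36%. The lower ones were the carbonic anhydrase gene ca9 (-1.84), the prolyl hydroxylase gene egln3 (-1.34), the erythropoietin gene epo (-1.2) and the lysyl oxidase gene lox (-1.11). Of these, epo had only 14 and 8 counts in wild-type and mutant females and lox 16 and 10, and both intervals reached up to -0.03. The male log2 ratio of lox was -1.03. For egln3 the female wild type alone was high, and for ca9 the female mutant alone was low. Of 34 tested immediate early genes, the interval lay above 0 in 6 and below 0 in 13, with a median of -0.02. In that list, atf3 was at least 2-fold higher and nr4a1 (-1.06) at least 2-fold lower. Among genes of protein synthesis and breakdown, 46 of 84 tested ribosomal protein genes and 26 of 43 proteasome genes had an interval above 0, and 11 and 1 below, at medians of 0.13 and 0.21. The male medians were -0.18 and 0.15. The female wild type was the lowest library in 62 of the 84 and 30 of the 43, where 27.9% of all tested genes had it lowest.

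**Figure D3:**
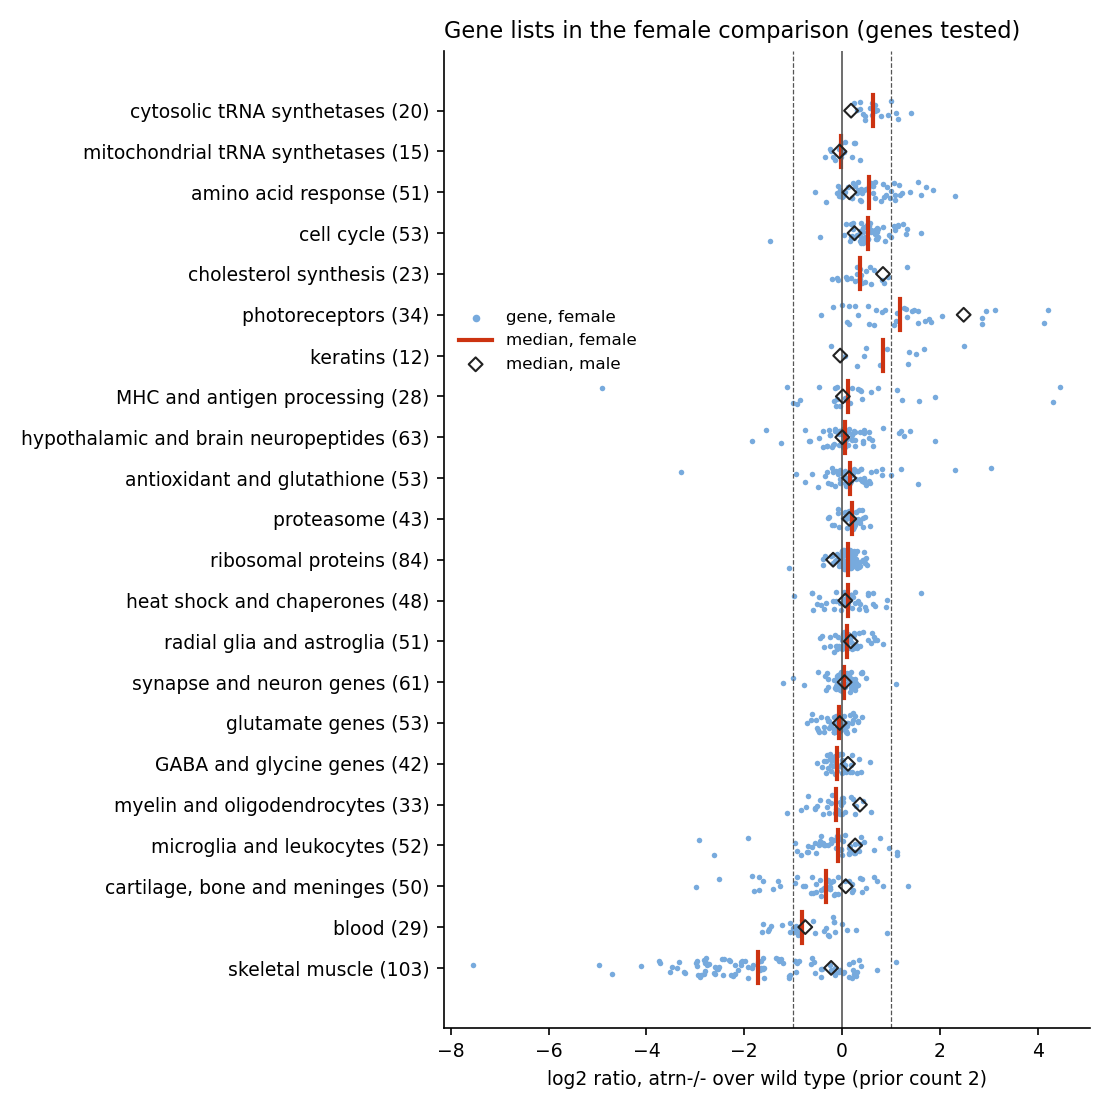
Female log2 ratios of the tested genes of 22 lists, with 1 blue point per gene, the female median as a red bar, the male median as a diamond and dashed lines at 2-fold. The cytosolic synthetase genes all lie above 0 and the mitochondrial ones around it, while the synapse, glutamate and GABA lists stay close to 0.

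Genes of cell division were the next group. In the adult zebrafish brain, progenitors along the ventricles go on dividing and produce neurons. Of 53 tested cell cycle genes, 9 were at least 2-fold higher in the female mutant and 1 lower, and the interval lay above 0 in 32 and below 0 in 1. The median log2 ratio was 0.54, and 0.26 in the males. Here both female libraries contributed to the ratio, the wild type more. The wild type was the lowest of the 4 in 42 of the 53 genes, where 27.9% of all tested genes had it lowest. The female mutant was the highest in 25 of the 53, where 24.3% of all tested genes had it highest. Against the mean of the male libraries, the list had a median of -0.43 in wild-type and 0.14 in mutant females. In bulk tissue, fewer cells of a type and less RNA per cell cannot be told apart.

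rrm2, a subunit of the enzyme that makes deoxynucleotides, was at 24.4 CPM in wild-type and 51.2 CPM in mutant females, and at 41.8 and 49.2 CPM in wild-type and mutant males. The female wild type was below the other 3, which lay close together. pcna, the sliding clamp of DNA replication, was at 41.9, 61.0, 52.3 and 59.7 CPM, and the proliferation marker mki67 at 27.7, 41.7, 35.1 and 40.1 CPM. The replication and chromatin genes gins2 (1.61), e2f1 (1.32), chaf1b (1.3), smc2 (1.15) and rpa2 (1.09) had female log2 ratios past 2-fold. cdk4, a kinase of early G1, went the other way with a log2 ratio of -1.47 (95% interval -2.07 to -0.97). The radial glia list, which includes the progenitor cells, had 0 of 51 genes past 2-fold in either direction and a median of 0.11. Its interval lay above 0 in 21 genes and below 0 in 5, and the female wild type was the lowest library in 19.

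Cholesterol synthesis genes were moderately higher. Of 23 tested, the interval lay above 0 in 15 and below 0 in 1, with a median log2 ratio of 0.37, and 0.84 in the males. cyp51, the sterol demethylase, had a female log2 ratio of 0.82 and hsd17b7, a sterol and steroid reductase, 0.37. The member past 2-fold was pmvk, the phosphomevalonate kinase, at 5.35 CPM in wild-type and 13.7 CPM in mutant females and at 7.13 and 8.50 CPM in wild-type and mutant males. Unlike most of the pathway, its male log2 ratio of 0.25 had an interval that includes 0 (-0.12 to 0.62). The sterol sensing, uptake and efflux genes had a median of 0.00, with srebf2 at 0.03 and abca1a at -0.31.

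**Figure D4:**
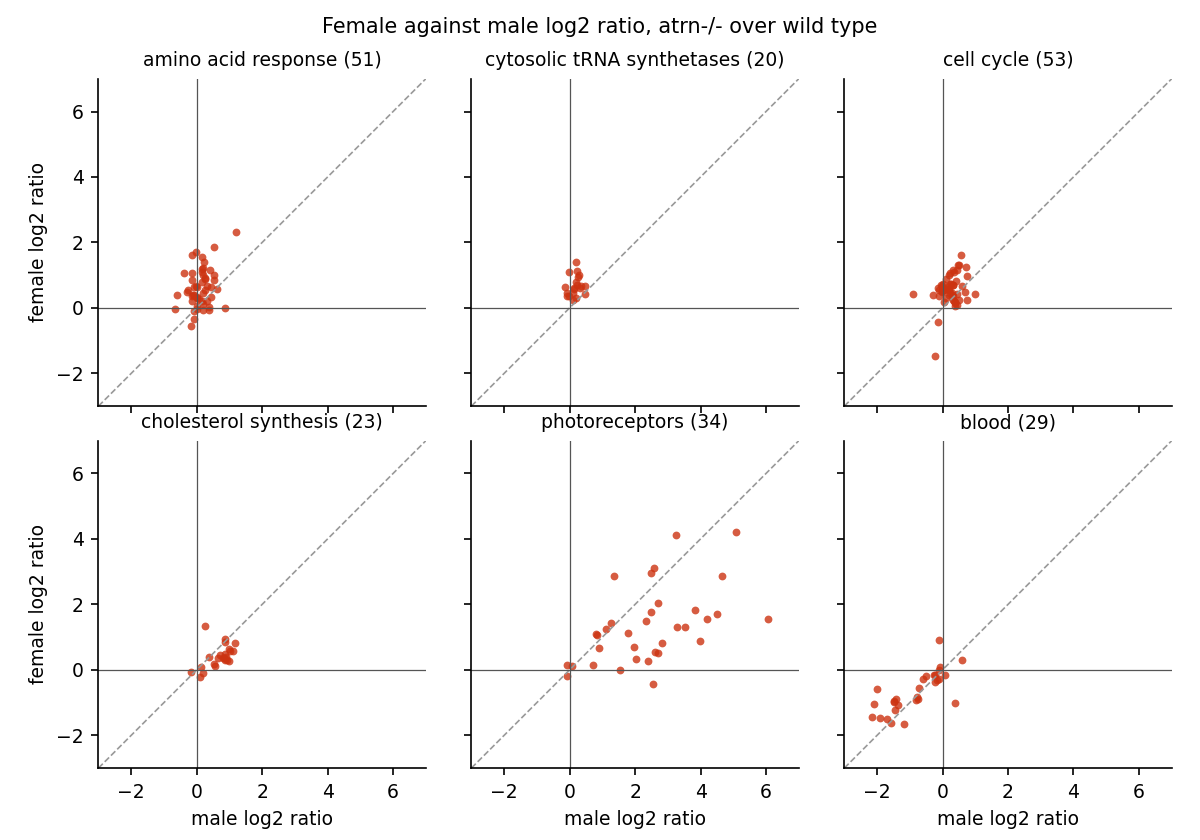
Female against male log2 ratio of atrn-/- over wild type for the tested genes of 6 lists, 1 point per gene, with a dashed line of equal ratios. Amino acid response and cytosolic synthetase genes lie mostly above that line, with male medians of 0.15 and 0.19 and slc7a11 at 1.2 for the males, cholesterol synthesis and photoreceptor genes lie mostly below it, and blood genes are mostly below 0 in both sexes.

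Neuropeptide genes differed in a few members. Of 63 tested, 5 were at least 2-fold higher and 3 lower in the female mutant, and the median was 0.07. Over all tested genes the shares were 3.36% and 4.47%, so the count of lower ones was close to its share. The genes for melanin-concentrating hormone, a hypothalamic peptide that in mammals promotes feeding and in fish pales the skin, were both higher. pmch was at 2.85 CPM in wild-type and 7.70 CPM in mutant females, and at 5.63 and 3.66 CPM in wild-type and mutant males. pmchl was at 10.4, 23.5, 20.0 and 8.25 CPM in the same order. For both genes, the genotypes were ordered oppositely in the sexes. penkb, an enkephalin precursor, had a log2 ratio of 1.22 (95% interval 0.95 to 1.5). agrp, the melanocortin antagonist, had 7 counts in wild-type and 28 in mutant females, a log2 ratio of 1.27 with a wide interval (0.19 to 2.86). gnrh3, a gonadotropin-releasing hormone gene, had 26 and 12 counts and a log2 ratio of -1.55 (95% interval -2.81 to -0.66), and npvf had -1.24. Among regional transcription factors, 3 of 86 were at least 2-fold higher and 4 lower, close to the shares over all tested genes. The higher ones included zgc:153395 (1.25) and nkx2.4b (1.01). The lower ones included dlx2b (-1.81), a gene of inhibitory neuron precursors, and tbr1b (-1.04), a gene of pallial neurons. In the males, the log2 ratios were 0.92 for zgc:153395, -0.85 for nkx2.4b, -0.35 for dlx2b and -0.32 for tbr1b.

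Few glutamate, GABA, glycine and synapse genes were past 2-fold. Of 53 glutamate genes and 42 GABA and glycine genes, 0 were past it, and medians were -0.07 and -0.11. The interval lay below 0 in 19 and above 0 in 8 of the glutamate genes, and in 12 and 6 of the GABA and glycine genes. In the synapse and neuron list, 25 of 61 intervals lay above 0 and 13 below, the median was 0.04, and 1 gene was past 2-fold in each direction. They were atp1b2a, a subunit of the sodium pump, and stxbp1b, which acts in vesicle docking. atp1b2a was at 504 CPM in wild-type and 1088 CPM in mutant females, and at 638 and 874 CPM in wild-type and mutant males, for a female log2 ratio of 1.11 (95% interval 1.06 to 1.16), and both mutants were above both wild types. stxbp1b had a log2 ratio of -1.21 (95% interval -1.5 to -0.94). Of 45 tested monoamine genes, 1 was at least 2-fold higher and 3 lower, where the shares over all tested genes were 3.36% and 4.47%. Their median was -0.14. The higher one was slc6a4b (1.05), and the lower ones were drd1 (-1.48), comta (-1.14) and si:dkey-28j9.6 (-1.14). The 33 myelin genes had a median of -0.12, and 0.37 in the males. The female wild type was the highest library in 19 of them, where 26.9% of all tested genes had it highest. The basic protein gene mbpa had a log2 ratio of -0.28, among the largest differences in CPM on the lower side. It was at 10349 CPM in wild-type and 8541 CPM in mutant females, and at 7765 and 8622 CPM in wild-type and mutant males, so the female wild type alone was high.

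The antigen presentation genes held large differences in single members. MHC class I and class II molecules present peptides to T cells, and their genes differ between individuals more than most. mhc1zba, a class I gene, was at 147 CPM in wild-type and 4.73 CPM in mutant females, and at 79.8 and 56.9 CPM in wild-type and mutant males, for a female log2 ratio of -4.91 (95% interval -5.35 to -4.59). Here the female mutant alone was low. Of the class II type, si:busm1-48c11.3 had 0 counts in wild-type and 37 in mutant females, with 24 and 84 in the males, which puts it at least 8.26-fold higher in the female mutant. LOC103911540, annotated as a class II beta chain and named after its values were seen, had 0, 140, 164 and 318 counts, at least 31.3-fold higher. For both, the female wild type alone was without reads. The class II gene mhc2dab was lower, at 47.1, 21.7, 7.63 and 22.3 CPM. Over the 28 tested genes of the list, 6 were at least 2-fold higher and 3 lower, with a median of 0.12. Reads of near-identical MHC copies may be split between loci, so the identity of the copy is uncertain.

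Other named genes were selected by size. The upper ones included fah, the last enzyme of tyrosine breakdown, with 4 counts in wild-type and 146 in mutant females and 107 and 247 in wild-type and mutant males. Its female wild type was far below the rest. sirt7, a nuclear deacylase, was at 10.9, 58.1, 13.2 and 27.5 CPM, a log2 ratio of 2.39 (95% interval 2.1 to 2.73), and lgals3bpb, a galectin ligand, at 13.1, 56.4, 22.5 and 45.4 CPM. For both, the 2 mutants were above the 2 wild types. slc22a21, a carnitine and organic cation carrier by family, had a log2 ratio of 3.94 (95% interval 3.05 to 5.67), with 1.99 in the males. mat2ab, which makes S-adenosylmethionine, had 2.30 (95% interval 1.68 to 3.15) with 0.18 in the males. ccbl2, an aminotransferase of kynurenine, had 1 count in wild-type and 96 in mutant females, and 3 and 120 in wild-type and mutant males. The 95% interval of its female log2 ratio ran from 3.49 to 11.33, and its male log2 ratio was 4.50. nfe2l2b, a homologue of the antioxidant regulator Nrf2, had 2 and 39 counts (95% interval 1.76 to 6.80).

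On the lower side, gpx1a, a glutathione peroxidase that removes hydrogen peroxide, was at 88.6 CPM in wild-type and 8.92 CPM in mutant females, and at 110 and 28.8 CPM in wild-type and mutant males. Both mutants were below both wild types, and the female log2 ratio was -3.29 (95% interval -3.60 to -3.03). efemp2b, an elastic fibre gene, had 505, 111, 2067 and 165 counts and had the same order of genotypes. fkbp15 had 107 counts in wild-type and 0 in mutant females, with 252 and 39 in the male wild type and mutant, at least 53.2-fold lower in the female mutant. iqch (-3.29), stoml3b (-4.47), pih1d2 (-4.16) and the receptor gene tlr8a (-3.06) were lower in the female mutant, with male log2 ratios of 0.26, -0.25, -0.44 and -0.63.

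**Figure D5:**
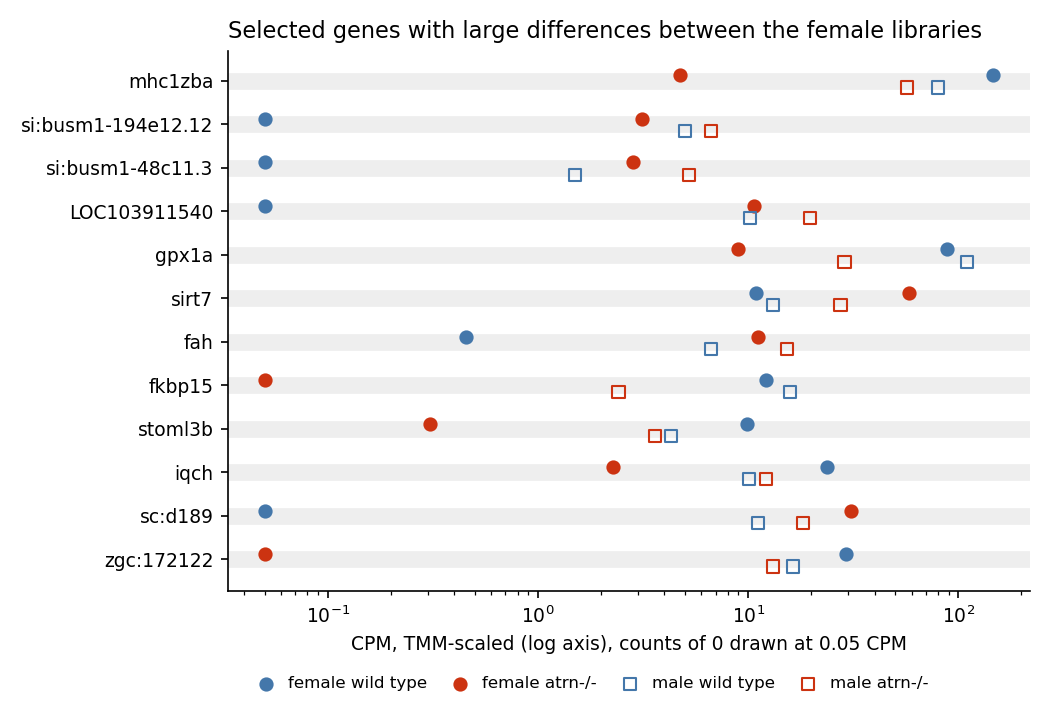
CPM of 12 selected genes in the 4 libraries, on a log axis, with circles for females, squares for males, blue for wild type and red for atrn-/-, and counts of 0 drawn at 0.05 CPM. mhc1zba and zgc:172122 are low or at 0 in the female atrn-/- alone, sc:d189 is at 0 in the female wild type alone, and gpx1a is lower in both mutants.

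Loci with locus or clone names made up 353 of the 669 higher and 460 of the 823 lower genes outside the muscle list. Over all 19943 tested genes they were 6072 (30.4%). By the prefixes used, they include cbsb and any other gene symbol that starts with cb. A few genes were nearly without reads in one female library and well covered in the other. In 21 genes, the female wild type had at most 3 counts and the female mutant at least 50, and 19 of them had locus or clone names. Both males had at least 50 counts in 9 of the 21, and 3 showed the same pattern in the males. The reverse, at most 3 counts in the female mutant, was seen in 22 genes, 20 of them with locus or clone names, with both males at 50 or more in 12 and the same pattern in the males in 1. sc:d189 had 0 counts in wild-type and 404 in mutant females, and 179 and 295 in wild-type and mutant males, at least 90.2-fold higher in the female mutant. zgc:172122 had 256, 0, 261 and 212 counts, at least 127-fold lower. si:ch211-233m11.1 had 163 counts in wild-type females and 0 in the other 3 libraries. Among those low in the female wild type, 3 loci are annotated as zinc finger protein 335-like, and reads of such similar copies may be split by the counting.

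Markers of tissues at the edge of a brain dissection varied as well, and their part in the ratios was not tested. Of 34 tested photoreceptor genes, shared by eye and pineal organ, 20 were at least 2-fold higher in the female mutant and 0 lower. The median log2 ratio was 1.19, or 1.47 over 33 of them with counts under 3 set to 3. It lay between 0.77 and 1.38 across the processing settings. In the males, 27 of the 34 were at least 2-fold higher and 0 lower, and the median was 2.49. In 10 of the genes a female library had at most 3 counts. Some passed the count minimum only through the mutants, so the count of 20 depends partly on the filter. An example is opn1lw1, with 0 counts in both wild types and 34 and 79 in the female and male mutants. The pineal opsin gene exorh was at 11.0 CPM in wild-type and 37.7 CPM in mutant females, and at 12.6 and 73.6 CPM in wild-type and mutant males. Both mutants were above both wild types. Blood genes were lower, 9 of 29 by at least 2-fold, at a median of -0.83 and a male median of -0.75. The globin gene ba1 was at 1154, 587, 1534 and 552 CPM.

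Many connective tissue genes were also highest in the female wild type. Of 50 tested genes of cartilage, bone and meninges, 10 were at least 2-fold lower in the female mutant and 1 higher, and the female wild type was the highest library in 32, where 26.9% of all tested genes had it highest. The collagen gene col1a1a was at 82.4 CPM in wild-type and 33.0 CPM in mutant females, and at 28.9 and 25.7 CPM in wild-type and mutant males. The periostin gene postnb was at 14.3, 4.35, 6.88 and 7.69 CPM. The aggrecan gene acana differed from these, at 5.46, 0.839, 4.94 and 3.60 CPM, where the female mutant alone was low. In a keratin list added after the values were seen, 5 of 12 tested genes were at least 2-fold higher in the female mutant and 0 lower. Among the 5, krt1-19d had only 0 and 3 counts in wild-type and mutant females, and its interval includes 0. It passed the count minimum through the males, with 26 and 14 counts. The female wild type was the lowest library in 7 of the 12 genes. It was lowest for krt5, at 8.88, 25.5, 42.0 and 40.6 CPM, and for krt91, at 6.15, 20.1, 55.1 and 33.4 CPM, but not for the 3 members with most reads, among them krt8 at 100.2, 137, 99.1 and 123 CPM. When the photoreceptor, pineal, blood, connective tissue, skin and other tissue lists were left out with the muscle list, 637 genes were at least 2-fold higher and 799 lower.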

How the data were processed

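Total RNA of brains at 4 mpf was sequenced from TruSeq libraries, and the authors deposited raw counts of reads for 31030 genes, not normalized. The paper names MapSplice as the aligner, while the submitters' processing notes name HISAT2 and GRCz10, and which made the counts was not resolved. The counting program is not given in the sources used here. Libraries were assigned from their labels.

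TMM factors and log2 CPM came from edgeR 4.0.16 (R 4.3.3), with a prior count of 2 and a minimum mean of 10 counts over the 4 libraries. Intervals are exact Clopper-Pearson 95% intervals of the mutant's share of the female counts, rescaled by effective library size, and cover counting error only. They were tested on simulated data. A fold against a count of 0 is a lower bound set with 3 counts per library. Intervals and list summaries used scipy 1.17.1, pandas 2.3.3 and numpy 2.4.6 under Python 3.11.15.

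The members and lists were chosen with earlier results of these data known. There were 39 lists, and 5 more were added after the values were seen. Named genes were atrn, cyp51, hsd17b7 and gapdh, the 15 highest and 15 lowest genes with symbols by the interval limit nearest to 0, the 4 highest and 4 lowest locus or clone names, the 5 largest CPM differences each way, and in each list the 3 members with most reads and up to 4 members past 2-fold. A selection of these is printed, and other genes were named after their values were seen. gapdh is in the muscle list (log2 ratio -2.78). Gene order came from the chromosome and start positions in a RefSeq table of GRCz12tu, and no sequences were used.

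Alternatives were scaling by total counts or by the size factors of DESeq2 1.42.0, TMM without muscle genes, other count minimums, prior counts of 0.5 and 5, and other thresholds.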

Additional observations from a re-analysis of the deposited data

Results flagged for a closer look

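In 6 named genes the female and male ratios were both at least 2-fold and in opposite directions, and these differences between the sexes were not tested, because each rests on 1 library per group. The female log2 ratio was 1.27 for agrp and -2.30 in the males, where the mutant had 2 counts (95% interval -6.41 to -1.21). pmchl had 1.17 in the females and -1.26 in the males. The class II gene mhc2dab had -1.12 and 1.53, and the interferon signalling gene stat1b -1.90 and 1.86. The collagenase gene mmp13a had -1.92 and 1.80, with 2 counts in the male wild type. The muscle phosphofructokinase gene pfkmb had -2.79 and 1.98, with 1 count in the male wild type.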

How the results depend on the processing

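The counts of genes past 2-fold depended on the filter and the threshold. Without a filter on low counts, 1833 genes were higher and 2090 lower, or 1828 and 2009 outside the muscle list. With a mean of at least 50 counts they were 206 and 277, or 206 and 242 outside it. A threshold of 1.5-fold gave 1666 and 2083, or 1664 and 2007, and an interval wholly past 2-fold gave 166 and 277, or 166 and 222. Under the other scalings and prior counts these counts stayed within 1.5 times their values. No named ratio past 2-fold changed direction. The hypoxia median lay between -0.05 and 0.11, and the medians of the fatty acid, glucocorticoid and steroid hormone lists and the pcsk1 ratio, all near 0, also took both signs. The atrn log2 ratio lay between -1.24 and -1.21, the amino acid response median between 0.54 and 0.61, the cytosolic synthetase median between 0.60 and 0.63 and the cell cycle median between 0.52 and 0.55. The liver and yolk median, over few genes, was -0.73 under the minimum of 50 counts. Ratios of genes with 0 counts in a female library, fkbp15 and sc:d189 among them, moved with the prior count. No paired analysis was possible because each group has a single library, so no replicate could be left out either. Dissection, batch and the fish themselves cannot be told apart from genotype here, and counting intervals hold none of that variation.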
